A study of Mus musculus with 12 samples.

Results

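Ms4a1, Cd22, Cr2, Fcer2a, Cd72, Fcrla, Bank1 and Cd37, a set of 8 genes that mark mature B cells or act in antigen receptor signaling there, were looked up by symbol in common lymphoid progenitors (CLPs). All 8 were found among the 47643 genes of the table. CLPs are bone marrow cells from which B, T and natural killer cells develop, and the study sorted them as lineage-negative cells with low Sca1 and c-Kit and with the receptor for interleukin 7. The lineage antibodies included B220, a surface protein of B cells. Each of 12 libraries of poly(A)+ RNA came from 1 adult male mouse, with 4 WT, 4 ∆Firre and 4 Firre rescue mice that were matched for age.

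The groups differ at Firre, an X-linked gene for a long noncoding RNA. ∆Firre mice carry a germline deletion of the gene and its promoter, made with a CMV-Cre allele that was bred out later, on a C57BL/6J background. Firre rescue mice carry the same deletion, a Firre cDNA transgene under a tetracycline-responsive promoter, and CAG-rtTA3, the widely expressed activator that switches it on, and they were fed doxycycline. Transgene, activator and diet are absent from the other groups, so their parts in any difference of the Firre rescue libraries cannot be told apart. Numbers after a group name below are the mouse numbers in the sample labels.

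As B cells mature, the antigen receptor comes to the surface together with receptors that tune its signal. Cd22 and Cd72 are inhibitory coreceptors that recruit the phosphatase Ptpn6. Cr2 is the complement receptor that lowers the threshold for activation, and Fcer2a is the low-affinity receptor for IgE. Ms4a1 is CD20, a membrane-spanning protein used to identify B cells, and Cd37 is a tetraspanin, a protein that organizes receptors in the membrane. Bank1 and Fcrla do not sit at the surface: Bank1 is a cytoplasmic scaffold of antigen receptor signaling, and Fcrla is an Fc receptor-like protein kept inside the cell. Most of these genes are textbook markers of later stages than a CLP, whereas Cd72 is already made by early B lineage cells.

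Reads recovered from the table numbered 10918615 to 18034396 in WT, 14271559 to 17455211 in ∆Firre and 25599367 to 32385972 in Firre rescue libraries. Fewer genes were above 0 in each Firre rescue library (15140 to 16835) than in any ∆Firre library (17910 to 19098), with 15472 to 19877 in WT. Levels are given in TPM, reads divided by gene length on a scale with the same total in every library. Firre itself matched the labels: WT libraries had 25.2 to 31.6 TPM, every ∆Firre library was at 0, and Firre rescue libraries had 59.9 to 174 TPM. Il7r, the receptor chain used in the sort, lay between 353 and 525 TPM in all libraries, and Cd3e, a defining T cell gene, at or below 0.732 TPM. Trbc1, the most abundant T cell gene read here, had means of 242, 262 and 128 TPM in WT, ∆Firre and Firre rescue. The Firre rescue libraries have library numbers in a range of their own, so genotype and that range cannot be told apart in either comparison that uses them. In all of these bulk samples, fewer cells of a type and less RNA per cell cannot be told apart.

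The promoters of 3 members are shown because Fcrla and Cd72 passed the test in opposite directions and Cd37, the most abundant member, did not pass it, while all hold the same short motif. Each runs from 250 bases before to 50 bases after a RefSeq start site on the minus strand of GRCm38.p6, and capitals mark GAGGAA or its reverse complement, the core read by PU.1, a factor of early B and myeloid cells. The windows are chr1:170927534-170927833 for Fcrla, chr4:43454577-43454876 for Cd72 and chr7:45238790-45239089 for Cd37. They all lie inside the full spans of the genes given below, so these are internal start sites. That of Fcrla lies furthest from the end at which its gene begins, chr1:170932216.
Fcrla: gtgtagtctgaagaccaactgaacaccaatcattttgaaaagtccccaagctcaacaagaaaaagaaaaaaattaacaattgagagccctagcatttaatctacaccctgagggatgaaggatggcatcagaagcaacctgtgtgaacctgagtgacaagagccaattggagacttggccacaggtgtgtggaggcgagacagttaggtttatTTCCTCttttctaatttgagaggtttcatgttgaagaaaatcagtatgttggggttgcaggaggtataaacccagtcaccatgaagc
Cd72: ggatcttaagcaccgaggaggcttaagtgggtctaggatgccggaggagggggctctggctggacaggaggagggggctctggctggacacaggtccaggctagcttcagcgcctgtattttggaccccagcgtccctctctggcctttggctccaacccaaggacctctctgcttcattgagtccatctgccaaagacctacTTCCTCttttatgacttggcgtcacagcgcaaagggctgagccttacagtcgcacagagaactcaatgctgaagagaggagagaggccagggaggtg
Cd37: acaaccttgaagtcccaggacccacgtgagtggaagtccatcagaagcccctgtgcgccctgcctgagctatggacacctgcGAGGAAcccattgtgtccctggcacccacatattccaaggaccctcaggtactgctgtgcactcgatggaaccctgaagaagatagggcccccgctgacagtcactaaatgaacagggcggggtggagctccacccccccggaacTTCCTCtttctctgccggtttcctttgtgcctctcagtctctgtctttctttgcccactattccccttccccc

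The match begins 37 bases before the start site in Fcrla and 47 bases before it in Cd72, on the opposite strand to the gene in both. In Cd37 matches begin 168 and 23 bases before it. Searched on both strands, GAGGAA was in the windows of 3 of the 7 members that have an entry. These members have 9 windows, 3 of them of Fcer2a without a match, so the count per window was 3 of 9. Of 32851 promoter windows of the same length, 28.3% held it. The core CCCNNGGG read by Ebf1, which directs early B cell development, was in 2 of the 7, namely Cd22 and Bank1. That is 2 of 9 windows, against 13.7% of all windows. ATGCAAAT, the octamer read by Oct factors, was in none of the 7 and in 1.74% of all windows. These matches describe the letters in the windows only.

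The levels of the 8 genes spanned a wide range. TPM is scaled per gene length, so levels can be set side by side between genes, although the length used for each gene and the treatment of reads that map to several places are not given in the sources used here. Cd37 had the highest mean over the 12 libraries with 82.7 TPM, followed by Cd72 with 67.7 TPM, and Cd37 was above Cd72 in 11 of 12 libraries. Fcrla with 7.76 TPM and Bank1 with 7.30 TPM came next, and their order was not stable, since Fcrla was the higher in 6 of 12 libraries. These were 2 of 4 WT, 3 of 4 ∆Firre and 1 of 4 Firre rescue libraries. Ms4a1 had a mean of 1.74 TPM and Cd22 a mean of 1.53 TPM, with Ms4a1 the higher in 7 of 12. That order depended on the group, with Ms4a1 the higher in 4 of 4 WT, 3 of 4 ∆Firre and 0 of 4 Firre rescue libraries. Fcer2a, at 0.473 TPM, and Cr2, at 0.133 TPM, were at or near 0, and both are known as receptors of mature B cells. By rank among all 47643 genes, Cd37 was 2194th and Cr2 19432nd. A gene was tested if its mean over the libraries was at least 1 TPM, which kept 6 members and left out Cr2 and Fcer2a.

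**Figure D1:**
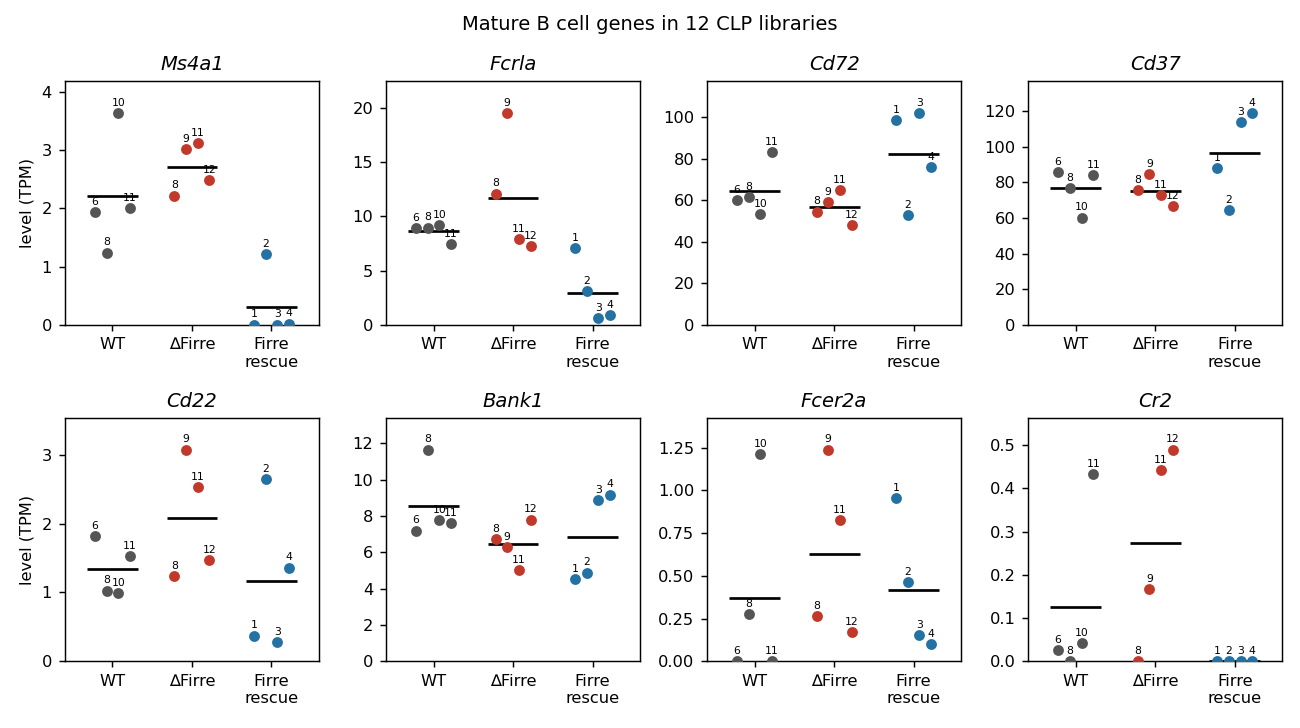
Level of each gene in TPM (vertical axes from 0, a scale per gene) in 4 WT, 4 ∆Firre and 4 Firre rescue libraries. Points are libraries with their mouse numbers, and black lines are group means. Ms4a1 and Fcrla lie lower in every Firre rescue library than in every other library, and Cr2 is at 0 in all 4 of them. Of all tested genes, 15.6% lie lower in this way than ∆Firre and 14.5% than WT.

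Deletion of Firre alone was compared first, ∆Firre against WT. None of the 6 members tested passed limma with an adjusted p up to 0.1, which is what called means below, and none had an unadjusted p under 0.05 in limma or in limma-voom on the recovered reads. The same test called 3 of 14479 genes in this comparison (0.0207%), one of them Firre. The differences of the members on the log2(TPM + 1) scale ran from -0.35 for Bank1 to 0.37 for Cd22, with a median of 0.11 beside -0.06 over all genes tested. Their 95% intervals were widest for Fcrla, from -0.69 to 1.30, and narrowest for Cd37, from -0.41 to 0.36, so that changes within those bounds could not be seen with 4 mice per group. Every member (with Cr2 and Fcer2a, which were not tested) overlapped between ∆Firre and WT, as most tested genes did. Only 4.49% of all tested genes were lower and 0.843% higher in every ∆Firre library than in every WT library. Within the first range of library numbers (mice 8 and 11 of both groups) Bank1 differed by -0.61, and within the second range by -0.08. Cd37 differed by -0.11 in the first range and 0.06 in the second, and no member was called in either range.

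The second question was what changed when Firre RNA was supplied from the transgene, Firre rescue against ∆Firre. Ms4a1 and Fcrla were lower in Firre rescue and Cd72 was higher, which makes 3 of 6 members called where 27.9% of all tested genes were called (8.58% higher and 19.3% lower). Cd22, Bank1 and Cd37 did not pass the test. Every Firre rescue library also had fewer genes above 0 than every ∆Firre library, despite more reads, and the part of this in the lower Ms4a1 and Fcrla was not tested. The median difference of the 6 members was -0.28 on the log2 scale, beside -0.16 over all genes tested, so a difference of 0 is already above the middle of the genes. Against WT, Ms4a1 and Fcrla were again lower, 2 of 6 members, where 24.3% of all tested genes were called (4.82% higher and 19.4% lower), and the medians were -0.27 for the members and -0.21 for all genes. Both comparisons use the same Firre rescue libraries and are not independent of each other. The calls of Ms4a1 and Fcrla against ∆Firre held under every alternative setting in which they were tested, whereas that of Cd72 was lost in 17 of 26. With median ratio scaling the calls over all genes were 1889 higher and 1875 lower against ∆Firre, in place of 1242 and 2801, and 1288 and 1256 against WT, in place of 698 and 2814. With that scaling 4 members were called in each comparison. Under quantile normalization the median of the members against ∆Firre turned from -0.28 to 0.28, that of all genes from -0.16 to 0.02, and no member was called against WT, where the adjusted p of Ms4a1 was 0.193 and that of Fcrla 0.118 (limma).

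**Figure D2:**
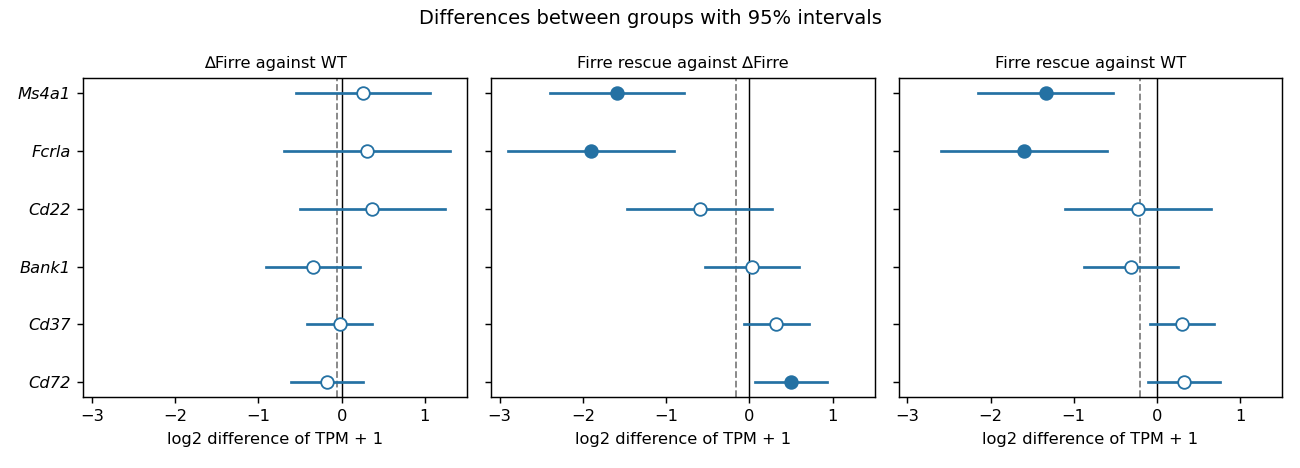
Difference between groups on the log2(TPM + 1) scale for the 6 tested members in 3 comparisons, with 95% intervals from limma. Filled points were called, and the dashed line is the median of all 14479 tested genes. Ms4a1 and Fcrla are filled on the left in both comparisons with Firre rescue, and Cd72 is filled on the right only against ∆Firre.

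Ms4a1, which encodes CD20 and lies at chr19:11249679-11266149 of GRCm38.p6, was the tested member of lowest level in Firre rescue. Its level was 1.94, 1.24, 3.64 and 2.003 TPM in WT 6, 8, 10 and 11, and 2.22, 3.02, 3.12 and 2.48 TPM in ∆Firre 8, 9, 11 and 12. In Firre rescue 1, 2, 3 and 4 it was 0, 1.22, 0 and 0.0172 TPM. The last values rest on 0, 84, 0 and 1 reads, while 27 to 132 reads lay behind the values of the other 8 libraries, which were sequenced less deeply. Firre rescue 2 alone came near the other groups, just below the lowest WT library, and no Firre rescue library overlapped either group, as was the case for 15.6% of tested genes on the lower side of ∆Firre and 14.5% on the lower side of WT. At the depth of Firre rescue 1 and 3, 3 reads would be 0.0531 and 0.0458 TPM, which is the level that a count of 0 allows. The mean of Firre rescue was 0.309 ± 0.606 TPM, beside 2.71 ± 0.429 TPM for ∆Firre and 2.21 ± 1.02 TPM for WT (SD, n = 4 each), 8.78-fold lower in Firre rescue than in ∆Firre. That ratio is set by Firre rescue 2, since the other 3 libraries of the group hold 1 read in all. The log2(TPM + 1) difference was -1.59 ± 0.37 (SE) against ∆Firre with an adjusted p of 0.0126, and -1.34 ± 0.37 against WT with an adjusted p of 0.0295 (limma). The size of the difference from ∆Firre depends on the processing for so low a gene, from -0.54 with a pseudocount of 5 through -3.81 with a pseudocount of 0.1 to -6.08 by limma-voom on the recovered reads.

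Fcrla, the intracellular Fc receptor-like protein, lies at chr1:170917594-170932216 and was lower, to a varying degree, in the Firre rescue libraries. It stood at 8.92, 8.96, 9.20 and 7.48 TPM in WT 6, 8, 10 and 11, and at 12.1, 19.6, 7.90 and 7.26 TPM in ∆Firre 8, 9, 11 and 12. Firre rescue 1, 2, 3 and 4 had 7.09, 3.14, 0.596 and 0.912 TPM, from 113, 61, 11 and 15 reads. Firre rescue 1 lay just under the lowest ∆Firre library and the others well below, so the groups did not overlap, although by a small margin. Such a gap was seen in 15.6% of tested genes below ∆Firre and in 14.5% below WT. The mean of 2.93 ± 2.99 TPM in Firre rescue was 3.99-fold below the 11.7 ± 5.67 TPM of ∆Firre and 2.95-fold below the 8.64 ± 0.786 TPM of WT (SD, n = 4 each). By limma the log2 difference was -1.90 ± 0.46 (SE) against ∆Firre with an adjusted p of 0.0142, and -1.60 ± 0.46 against WT with an adjusted p of 0.0331. Without Firre rescue 1 the mean of the group was 1.55 TPM, 7.57-fold below ∆Firre and 5.58-fold below WT, and the log2 difference from ∆Firre was -2.35. Without ∆Firre 9, the library of highest level, the difference from ∆Firre was -1.64 and still called with an adjusted p of 0.0494.

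Cd22 and Cd72 are both inhibitory coreceptors of the antigen receptor, and of the pair only Cd72 was called in any comparison. Cd72, a C-type lectin at chr4:43447724-43455102, had 60.1, 61.2, 53.1 and 82.9 TPM in WT 6, 8, 10 and 11 and 54.4, 58.9, 64.8 and 47.8 TPM in ∆Firre 8, 9, 11 and 12. In Firre rescue 1, 2, 3 and 4 it had 98.6, 52.7, 102 and 75.8 TPM. Libraries 1, 3 and 4 were above every ∆Firre library and library 2 was within the ∆Firre values, so the groups overlapped. The mean rose from 56.5 ± 7.16 TPM in ∆Firre to 82.3 ± 22.9 TPM in Firre rescue (SD, n = 4 each), 1.46-fold, with a log2 difference of 0.50 ± 0.20 (SE) and an adjusted p of 0.0976 by limma, close to the threshold. Against WT, with a mean of 64.4 ± 12.9 TPM, the difference was 0.32 ± 0.20 with an adjusted p of 0.290, and its 95% interval ran from -0.11 to 0.75. The direction against ∆Firre was kept in all 26 alternatives, with differences from 0.20 to 0.69, but leaving out any of the 4 ∆Firre libraries, WT 6, 8 or 10, or Firre rescue 1, 3 or 4 ended the call. The GC content of its coding transcript is 56.5%, above the median of 50.1% over the tested genes with such a transcript, and with each library corrected for GC content the difference was 0.20 with an adjusted p of 0.513. What part GC content has in the difference was not tested beyond that value.

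Cd22, a sialic acid-binding lectin at chr7:30865404-30880342, was low and variable. WT 6, 8, 10 and 11 had 1.81, 1.03, 0.993 and 1.53 TPM, and ∆Firre 8, 9, 11 and 12 had 1.23, 3.07, 2.53 and 1.47 TPM. Firre rescue 1, 2, 3 and 4 had 0.373, 2.64, 0.284 and 1.36 TPM. Firre rescue 1 and 3, in which Ms4a1 was at 0, were the lowest of the 12 libraries, while Firre rescue 2, the only one of its group with more than 1 read of Ms4a1, had the second highest value of all. The mean differed by -0.60 ± 0.40 (SE) on the log2 scale from ∆Firre, with an adjusted p of 0.324 and a 95% interval from -1.47 to 0.28 (limma). Under quantile normalization it turned to 0.25, so no direction is given.

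Cd37 was the most abundant member, and lies at chr7:45233632-45239340. It had 85.8, 76.8, 60.2 and 84.2 TPM in WT 6, 8, 10 and 11, and 75.6, 84.5, 72.9 and 66.6 TPM in ∆Firre 8, 9, 11 and 12. Firre rescue 1, 2, 3 and 4 had 88.2, 64.6, 114 and 119 TPM. Of the Firre rescue libraries, 3 were above every WT and ∆Firre library and library 2 was below every ∆Firre library, the same library that was lowest for Cd72 in its group. The log2 difference from ∆Firre was 0.33 ± 0.18 (SE), with an adjusted p of 0.223 and a 95% interval from -0.06 to 0.71 (limma). It was called in 2 of 26 alternatives, at 0.50 without Firre rescue 2, with an adjusted p of 0.0355, and at 0.44 under median ratio scaling, with an adjusted p of 0.0653, and under the GC correction it was -0.12 with an adjusted p of 0.669. Against WT the difference was 0.30 ± 0.18 with an adjusted p of 0.277 (limma), and it was called under the same 2 alternatives, at 0.48 and 0.49. The coding transcript of Cd37 has a GC content of 59.0%.

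Bank1, the scaffold, lies at chr3:136053363-136326141. Its values were 7.19, 11.7, 7.76 and 7.61 TPM in WT 6, 8, 10 and 11, and 6.74, 6.30, 5.02 and 7.80 TPM in ∆Firre 8, 9, 11 and 12. Firre rescue fell into a low pair, with 4.53 and 4.89 TPM in mice 1 and 2, and a high pair, with 8.88 and 9.17 TPM in mice 3 and 4. The low pair was below and the high pair above every ∆Firre library, and the log2 difference between the groups was 0.03 ± 0.26 (SE), with an adjusted p of 0.947 and a 95% interval from -0.53 to 0.59 (limma). The 2 Firre rescue libraries with high Bank1 were those with the lowest Fcrla.

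The receptors of the mature B cell that were not tested stayed close to the floor. Fcer2a, at chr8:3680280-3694174, had 0, 0.276, 1.21 and 0 TPM in WT 6, 8, 10 and 11, and 0.265, 1.24, 0.828 and 0.173 TPM in ∆Firre 8, 9, 11 and 12. Firre rescue 1, 2, 3 and 4 had 0.956, 0.464, 0.153 and 0.103 TPM. At most 27 reads lay behind any of these values, and all 3 groups overlapped. Cr2, at chr1:195136811-195176880, had 0.0262, 0, 0.0426 and 0.433 TPM in WT 6, 8, 10 and 11, and 0, 0.166, 0.442 and 0.489 TPM in ∆Firre 8, 9, 11 and 12. No Firre rescue library had a read of it, against 19 reads in all in WT and 48 in ∆Firre. Since WT 8 and ∆Firre 8 were also at 0, the groups overlapped. With 3 reads in each Firre rescue library as the floor, a mean of 0.0374 TPM, the mean of ∆Firre was at least 7.34-fold higher. No fold is given for WT, since 16 of its 19 reads came from WT 11 and the mean of the others, 0.0229 TPM, is under that floor. Fitted without a filter over 25277 genes, Cr2 had an adjusted p of 0.193 against ∆Firre and Fcer2a one of 0.783 (limma).

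For 5 members a second RefSeq gene overlaps the locus, namely 4930526L06Rik at Ms4a1, Gm32313 at Cr2, Trappc5 at Fcer2a, Tesk1 at Cd72 and Gm2962 at Fcrla. The strand setting of the counting is not given in the sources used here, so reads of these pairs could not be assigned with certainty. Cd22, Bank1 and Cd37 have no such neighbor.

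Genes of the antigen receptor complex and its signaling were read beside the 8 members. Of 16 genes listed and tested, 8 were called higher and 1 lower in Firre rescue than in ∆Firre, with a median log2 difference of 0.40. Over all tested genes 8.58% were called higher and 19.3% lower. The count of the list was 13 higher and 0 lower under median ratio scaling, where 1889 and 1875 of 14479 genes were called. It was 11 and 0 under quantile normalization, where 2001 and 1732 genes were called. After the GC correction it was 7 and 0, where 726 and 1187 of 11713 genes were called. Cd79a, a signaling chain of the antigen receptor, ranged from 207 to 370 TPM in Firre rescue, from 88.5 to 116 TPM in ∆Firre and from 55.7 to 122 TPM in WT. It was 1.46 ± 0.22 (SE) above ∆Firre with an adjusted p of 0.00105 (limma), and its partner chain Cd79b was 1.10 higher. Every Firre rescue library was above all others for Cd79a and below all others for Ms4a1. Lying below every ∆Firre library was seen in 15.6% of tested genes and below every WT library in 14.5%. The share of genes lying above was not counted. The kinase Lyn, which phosphorylates Cd22, was the gene called lower, with a difference of -0.26 and an adjusted p of 0.0745 (limma), a call lost in 13 of 26 alternatives, among them median ratio scaling. The tetraspanin Cd81 and the exchange factor Vav1 were not called, with differences of 0.32 and 0.12.

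Among factors that set B cell identity and genes of early B progenitors, more were called higher than lower. Over all tested genes 8.58% were called higher and 19.3% lower. Of 12 identity factors, 5 were called higher and 1 lower, with a median of 0.40, and Pax5 rose by 1.47, Ebf1 by 1.03 and Tcf3 by 1.30, whereas Ikzf1 differed by 0.01. The gene called lower was Ikzf3, with a difference of -1.75, named after its value was seen. Of 12 early B progenitor genes, 6 were called higher and none lower, with a median of 0.81, among them Rag1, which cuts antigen receptor genes, by 0.73. Under median ratio scaling 9 of them were called higher and under quantile normalization 8, where 1889 and 2001 of 14479 genes were called higher. Dntt and Sox4, the most abundant of that list, differed by 0.20 and -0.25 and were not called. Against WT the same lists gave 7 higher and 1 lower, 5 higher and 2 lower, and 5 higher and 1 lower. Over all tested genes 4.82% were called higher and 19.4% lower against WT. In ∆Firre against WT no gene of any of these lists was called by limma.

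The other inhibitory receptors and their phosphatases were called in both directions, except after the GC correction, which left 0 higher and 2 lower. That correction called 726 of 11713 genes higher and 1187 lower. Of 11 genes tested, 3 were called higher and 2 lower in Firre rescue than in ∆Firre, with a median of -0.03 beside -0.16 for all genes. Over all tested genes 8.58% were called higher and 19.3% lower, so the share called lower was close to that of all genes. Fcgr2b, the inhibitory receptor for IgG, fell from 10.7 to 19.8 TPM in ∆Firre to 2.49 to 5.75 TPM in Firre rescue, a log2 difference of -1.70 ± 0.29 (SE) with an adjusted p of 0.00248 (limma). Siglecg, a relative of Cd22, differed by 0.28 with an adjusted p of 0.528, and Ptpn6, the phosphatase that Cd22 and Cd72 recruit, by -0.03 with an adjusted p of 0.903. The kinase Csk and the lipid phosphatase Inpp5d were 0.46 and 0.40 higher, as was the adaptor Dok3, named after its value was seen, by 1.32. Over the alternatives Csk ran from -0.05 to 0.58.

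Among 14 tested genes for other receptors of mature B cells, none was called higher and 3 were called lower, a share close to the 19.3% of all tested genes, with a median of -0.14 beside -0.16 for all genes. Of the 14, 2 were called lower under median ratio scaling and after the GC correction, and 1 under quantile normalization. Among all genes 1875, 1187 and 1732 were called lower in these settings, in that order, of 14479, 11713 and 14479 tested. The receptors for the survival factor BAFF and the follicular chemokine, Tnfrsf13c and Cxcr5, had means of 35.6 and 8.33 TPM in Firre rescue beside 30.2 and 6.28 TPM in ∆Firre and were not called, nor was H2-Ob. Those called were Gpr183, Fcmr and Tnfrsf13b, with differences of -2.18, -1.56 and -0.38, of which Gpr183 and Fcmr are named because of their values. The call of Tnfrsf13b was lost in 13 of 26 alternatives. Of 11 tetraspanins beside Cd37, Cd63 and Cd9, named after their values were seen, were called lower, with differences of -2.94 and -1.59, and none higher (1 after the GC correction), again beside 19.3% of all tested genes called lower. Cd53, the most abundant of them, had means of 611 TPM in Firre rescue and 658 TPM in ∆Firre and was not called.

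**Figure D3:**
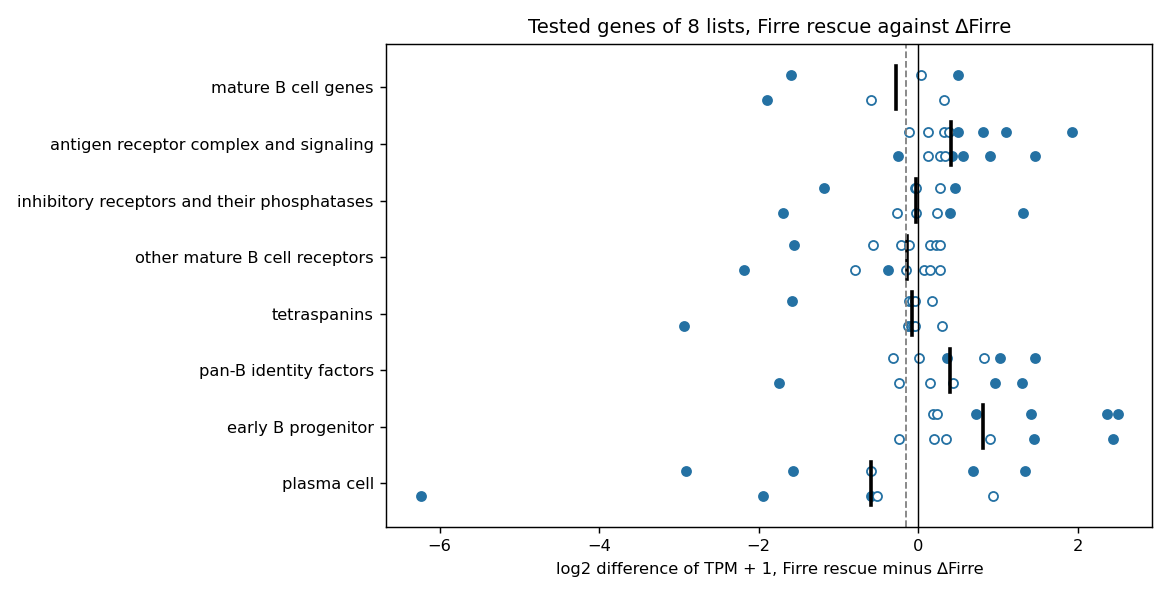
Log2(TPM + 1) difference of Firre rescue minus ∆Firre for every tested gene of the 8 mature B cell genes and 7 other lists. Each circle is a gene, filled where called by limma, black bars are list medians, and the dashed line is the median over all tested genes. The medians of the antigen receptor, identity factor and early B progenitor lists lie to the right of 0, and that of the 6 tested members lies at -0.28.

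Some genes of other cells were also called lower in Firre rescue, as Ms4a1 and Fcrla were. Over all tested genes 19.3% were called lower and 8.58% higher against ∆Firre. Of 10 plasma cell genes, 5 were called lower and 2 higher in Firre rescue than in ∆Firre, and their summed level was 308 to 536 TPM in Firre rescue, 1630 to 3444 TPM in ∆Firre and 892 to 1650 TPM in WT. Jchain, which joins secreted immunoglobulin, was 1369 to 3110 TPM in ∆Firre, most of that group's sum, and 1.18 to 195 TPM in Firre rescue. The 2 called higher were Sdc1, which encodes the plasma cell marker CD138, whose mean went from 52.6 in ∆Firre to 85.5 TPM in Firre rescue, and Mzb1, a chaperone of immunoglobulin assembly, whose mean went from 56.1 to 151 TPM. Within Firre rescue, Jchain was highest in library 2, at 195 TPM, the library that was also highest for Ms4a1 and Cd22. All 9 basophil and mast cell genes were called lower, with sums of 64.5 to 142 TPM in Firre rescue, 2977 to 4403 TPM in ∆Firre and 1086 to 9304 TPM in WT, and Prss34 was at 0 to 23.8 TPM in Firre rescue. Of 9 natural killer cell genes 6 were lower and none higher, with sums of 355 to 399 TPM against 547 to 864 TPM in ∆Firre, and 3 were lower under median ratio scaling and under quantile normalization. Of 8 tested T cell genes 4 were lower, and only 1 under median ratio scaling or quantile normalization. Under those scalings 1875 and 1732 of 14479 genes were called lower. Cd3e, too low to test, was at 0 in every Firre rescue library and in 2 libraries of each other group. The part of these cells in the lower Ms4a1 and Fcrla was not tested.

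The remaining lists gave fewer calls, or calls in both directions. Of 11 granulocyte and monocyte genes 3 were lower, and of 6 genes of innate lymphoid cells of type 2, 4 were lower and 1 higher. Of 7 plasmacytoid dendritic cell genes 3 were lower and 2 higher. Over all tested genes 19.3% were called lower and 8.58% higher. The dendritic cell count was 2 lower and 2 higher under median ratio scaling and quantile normalization, and 1 and 1 after the GC correction. Among 14479 genes 1875 were lower and 1889 higher under median ratio scaling, and 1732 and 2001 under quantile normalization. After the GC correction 1187 of 11713 were lower and 726 higher. None of 7 erythroid genes was called. Of 10 genes of the CLP sort and identity, 4 were lower and 1, Ly6d, the most abundant of its list, was higher, with a difference of 1.36. The difference was -0.49 for Kit, with an adjusted p of 0.0137, and -0.57 for Ptprc, whose B cell isoform is B220, with an adjusted p of 0.00268 (limma), while Il7r differed by -0.05 and Flt3 by 0.08.

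Across the 12 libraries the 6 tested members did not rise and fall as a unit. Ms4a1 had r = -0.75 with Cd72 and with Cd37, whereas Cd72 and Cd37 had r = 0.76 with each other. An average of the members therefore mixes opposed patterns, and likeness to it describes no single member. To compare them with other genes, each member was set to mean 0 and SD 1 over the libraries and the 6 were averaged. The 8 named genes most like that average were Aoah (r = 0.90), Azi2, Pde7a, Ralgps2, Rab6b, Ptk2b, G2e3 and Bcl2l11 (r = 0.86). With the group means removed, their r lay between 0.74 for Bcl2l11 and 0.83 for Pde7a. These values describe 12 libraries, with genes picked from all those tested for a high r.

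**Figure D4:**
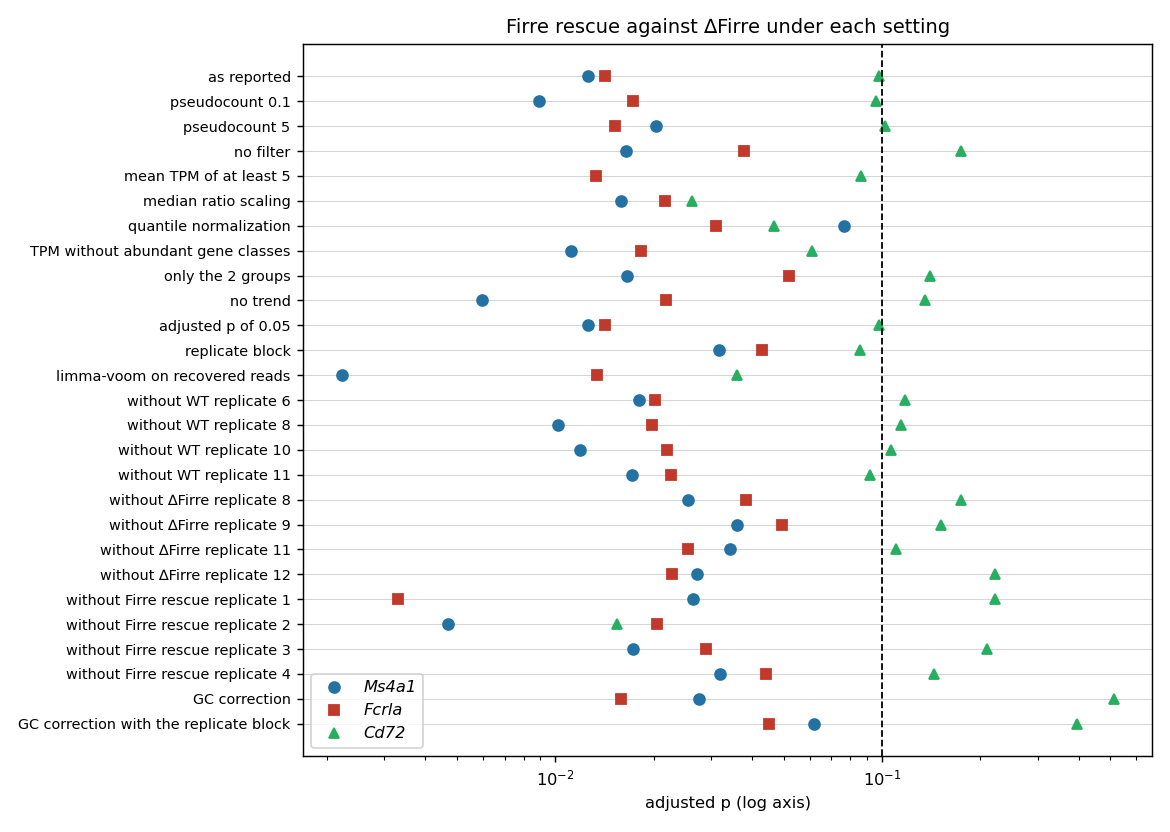
Adjusted p (log axis) of Ms4a1, Fcrla and Cd72 in Firre rescue against ∆Firre under the reported fit and each alternative. The dashed line is the threshold of 0.1. Ms4a1 and Fcrla stay to its left wherever they were tested, and Cd72 lies near it or to its right in most settings.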

How the data were processed

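Poly(A)+ RNA of sorted CLPs was sequenced in paired ends, 1 library per mouse. The authors trimmed the reads, mapped them to mm10 with TopHat 2.1.1, assigned them to Gencode genes with featureCounts, and turned the reads of a gene into TPM by its length and the library's total; TPM is the deposited unit. The gene lengths used, the strand setting and the handling of multi-mapped reads are not given in the sources used here. The study's own test ran on counts, for which limma 3.58.1 in R 4.3.3 on TPM stood in.

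The fit was made on log2(TPM + 1) for the 14479 genes whose mean reached 1 TPM, all 12 libraries in one fit with a mean-variance trend. P-values were two-sided, adjusted by Benjamini and Hochberg over all tested genes, and called up to 0.1. Groups came from the sample labels. Reads were recovered as the smallest whole numbers that fit the spacing of the TPM values. They came out whole in every library for 14476 of the 14479 tested genes, within 0.002 of a read for the smallest numbers. They give depth and counting error and are the input of limma-voom, and read counts are not independent molecules.

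The members and gene lists were chosen with earlier results of these data known. All 8 members are named. From each list the 3 tested genes of highest mean TPM and fixed defining genes may be named, and others are said to be named for their values. Ighd, Hbb-bs and Hbb-bt of the lists were not matched and not analysed here, and some other list genes are not reported here by name. Positions and promoters came from RefSeq on GRCm38.p6, the build the authors mapped to. Alternatives covered the pseudocount, filter, scaling, samples, trend, threshold, a block on mouse number, library number range, limma-voom on recovered reads, and each library left out. A correction for GC content, with and without the block, was added after the data were seen, with GC content from an older Gencode annotation that covers 80.9% of the tested genes. The fit was also run on simulated data, and no result given here rests on that run. Python 3.11.15, numpy 2.4.6 and pandas 2.3.3 were used.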

Additional observations from a re-analysis of the deposited data

Results flagged for a closer look

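In 4 of 24 group and gene combinations, a library stood apart from the other 3 of its group by Dixon's criterion on log2(TPM + 1), where chance alone marks about 5% of groups. Ms4a1 in Firre rescue 2 was 1.22 TPM, with the rest of the group at or near 0. Cr2 in WT 11 was 0.433 TPM, from 16 reads, with at most 2 reads in the other WT libraries. Fcrla in WT 11 was 7.48 TPM, below a tight cluster of the other WT libraries. Bank1 in WT 8 was 11.7 TPM, above the others, and without it the ∆Firre difference of Bank1 was -0.20 in place of -0.35, called in neither case.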

How the results depend on the processing

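Over 554 alternative values of the 3 counts and of the members' differences, 508 were labelled as the same. For a difference this means the same direction and the same side of the threshold. For the count in Firre rescue against ∆Firre the label allowed a move from 3 to 2 or 4, so all 26 of its values are among the 508. The count of members called in ∆Firre against WT was 0 in all 28 alternatives. In Firre rescue against ∆Firre it was 2 to 4 in 26 alternatives, and 2 to 4 with each library left out. In Firre rescue against WT, 2 called members became 4 under median ratio scaling, 1 with a mean TPM of at least 5, which leaves Ms4a1 untested, and 0 under quantile normalization, and 2 to 4 with each library left out (4 without Firre rescue 2). Fcrla and Ms4a1 lost their call against WT under quantile normalization alone, with adjusted p of 0.118 and 0.193, and over all alternatives their highest adjusted p against ∆Firre was 0.0521 and 0.0764.

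None of the 17 differences that changed sign was called. For Cd37 in ∆Firre against WT, -0.026 became 0.043 (median ratio), 0.038 (quantile), 0.022 (without abundant gene classes), 0.061 (second range), 0.048 (limma-voom) and 0.14 (both GC corrections), and lay between -0.137 and 0.0313 with each library left out, above 0 without WT 6, WT 11 or ∆Firre 12. For Cd37 in Firre rescue against ∆Firre the GC correction gave -0.12, and -0.088 with the replicate block. Bank1 there lay between -0.111 and 0.182 with each library left out, below 0 without ∆Firre 11, Firre rescue 3 or 4, and Cd22 gave 0.25 under quantile normalization, and 0.52 against WT. The cause was not tested.

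Mouse numbers 8 and 11 are shared by WT and ∆Firre, and these libraries are also all in the first range of library numbers. Same-numbered libraries did not deviate together (r = -0.03 and -0.04). What else these mice share is not given in the labels. With the replicate block, 0, 3 and 2 members were called in the 3 comparisons, and calls over all genes went from 4043 to 2787 in Firre rescue against ∆Firre and from 3512 to 2113 against WT. The block sets mice 8 and 11 apart and joins all other libraries, those of Firre rescue included. Its comparisons with Firre rescue therefore rest mainly on those joined libraries. Over all genes, median ratio scaling moved the calls against ∆Firre from 1242 higher and 2801 lower to 1889 and 1875. Quantile normalization gave 2001 and 1732 against ∆Firre, and 1208 and 1210 against WT. For Ms4a1, Cd22, Fcer2a and Cr2, few reads limit what can be seen.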
